A study of Homo sapiens with 15 samples.

Results

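The mitochondrial rRNA genes MT-RNR1 and MT-RNR2 were examined as targets of the single-strand nuclease P1 in the human leukemia cell line K562. They are 2 of the 37 genes of the mitochondrial genome and were chosen by name and position: chrM:648-1601 for MT-RNR1 and chrM:1671-3229 for MT-RNR2 in the GENCODE annotation of build GRCh37, both read on each strand. K562 is an established chronic myeloid leukemia line, listed as wild type. The cells were crosslinked with formaldehyde and lysed, and the mitochondria that sediment with the nuclei were digested together with them by 0.01, 0.1, 1 or 10 U of P1, or left untreated. Each of these 5 groups had 3 biological replicates, giving 15 samples. At 10 U the study saw genomic DNA degrade, which it related to a low activity of P1 on double-stranded DNA. It proposed that the 10 U samples could serve as a further negative control, since it expected single-stranded regions to be lost or depleted there. Termini at 10 U therefore need not mark single-stranded DNA. The assay, SSiNGLe-P1, tails and sequences the 3′-OH ends of DNA, so a terminus is either a break that was present in the cell or an end left by P1. Termini were counted by position and by strand, and the plus strand of the files was taken as the H (heavy) strand. In untreated samples 73.4 to 74.7% of plus-strand termini, and 0.0584 to 0.122% of minus-strand termini, lay within 6 bases of position 16107 of the control region, where the 3′ end of the 7S DNA, a short nascent H strand, is known to lie.

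MT-RNR1 encodes the 12S rRNA of the small subunit of the mitochondrial ribosome, and MT-RNR2 the 16S rRNA of the large subunit. Both are transcribed from the heavy-strand template, just downstream of the promoters in the control region, with the tRNA gene MT-TF before them, MT-TV between them and MT-TL1 after them. A known transcription termination site lies in MT-TL1, immediately past MT-RNR2, and the NADH dehydrogenase genes MT-ND1 and MT-ND2 follow. In the strand-displacement model of how this genome replicates, synthesis of the new H strand exposes the parental H strand as single-stranded DNA, while the L (light) strand stays mostly paired.

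The steps in the profile described below lie at the edges of the genes, and 3 edges are shown for that reason, written 5′ to 3′ as in the rRNA from the GENCODE transcripts. Capitals mark the 10 bases next to the edge. The H-strand step at 0.1 and 1 U lies at the end of MT-RNR2, and the first bases of MT-RNR1 are 1 of the places where termini were in excess at 10 U.
MT-RNR1, bases 1 to 50, chrM:648-697, in the sense of the rRNA: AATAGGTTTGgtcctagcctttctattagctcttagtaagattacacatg
MT-RNR2, bases 1 to 50, chrM:1671-1720, in the sense of the rRNA: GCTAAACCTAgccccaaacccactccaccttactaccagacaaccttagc
MT-RNR2, bases 1510 to 1559, chrM:3180-3229, in the sense of the rRNA: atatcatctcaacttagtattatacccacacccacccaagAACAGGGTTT
The mitochondrial genome of the files has 16571 bases and the reference used for the genes has 16569. Positions given below are those of the files and may lie about 2 bases later than the printed bases. In MT-ND1, just past MT-RNR2, base composition at termini gave a shift 1 base smaller than in the rRNA genes. The shift at the end of MT-RNR2 is therefore uncertain.

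The samples held 29622 to 692989 mitochondrial termini, of which 20536 to 229574 lay outside the control region, the non-coding stretch between MT-TP and MT-TF. The rRNA genes held 3256 to 32468 termini per sample, the fewest after 10 U. The percent of termini outside the control region (± SD, n = 3) was 32.0 ± 1.78 without P1 and 26.5 ± 7.81, 31.8 ± 3.45, 60.2 ± 1.51 and 72.8 ± 3.44 with rising amounts of P1. Shares were therefore taken of the termini outside the control region, of which the rRNA genes make up 16.3% of the bases. Both genes, read on both strands, held 14.5 ± 0.197% of these termini without P1. With 0.01 U they held 14.2 ± 0.315%, with 0.1 U 9.37 ± 0.728%, with 1 U 6.84 ± 1.22% and with 10 U 15.9 ± 0.164%. A lower share in the rRNA genes cannot be told apart from more termini elsewhere, since the number of mitochondrial genomes sampled was not measured.

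On the H strand, the rRNA genes held a smaller share of the strand's termini at 0.1 and 1 U than without P1. The share of H-strand termini that lay in MT-RNR1 was 6.23, 6.37 and 6.16% in the untreated replicates and 6.22, 5.79 and 5.60% with 0.01 U. With 0.1 U it was 3.16, 3.03 and 2.40%, with 1 U 2.24, 1.98 and 1.38%, and with 10 U 4.80, 5.38 and 5.31%. The 0.1 and 1 U samples all lay below every other sample, and the 0.1 U samples did not overlap the 1 U samples. In MT-RNR2 the share was 8.63, 7.99 and 7.82% in untreated replicates, 3.37, 3.39 and 2.34% at 1 U, and 9.62, 9.62 and 9.28% at 10 U, with 0.1 U between them at 4.46, 4.21 and 3.56%. Here the 10 U samples were above all untreated samples. The factor of 1 U over untreated was 0.293 for MT-RNR1 and 0.367 for MT-RNR2, and that of 10 U was 0.825 and 1.17. Both spreads over the 5 amounts had the smallest p that an exact two-sided permutation test within replicate numbers can give, 6.94e-05 (adjusted over 74 genes and strands, 0.00128). Of all genes and strands, 62.2% passed this test. With each position counted once the factors at 1 U were nearer to 1 and still passed, at 0.717 for MT-RNR1 and 0.765 for MT-RNR2, and at 0.510 and 0.570 when samples were first thinned to equal termini.

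**Figure D1:**
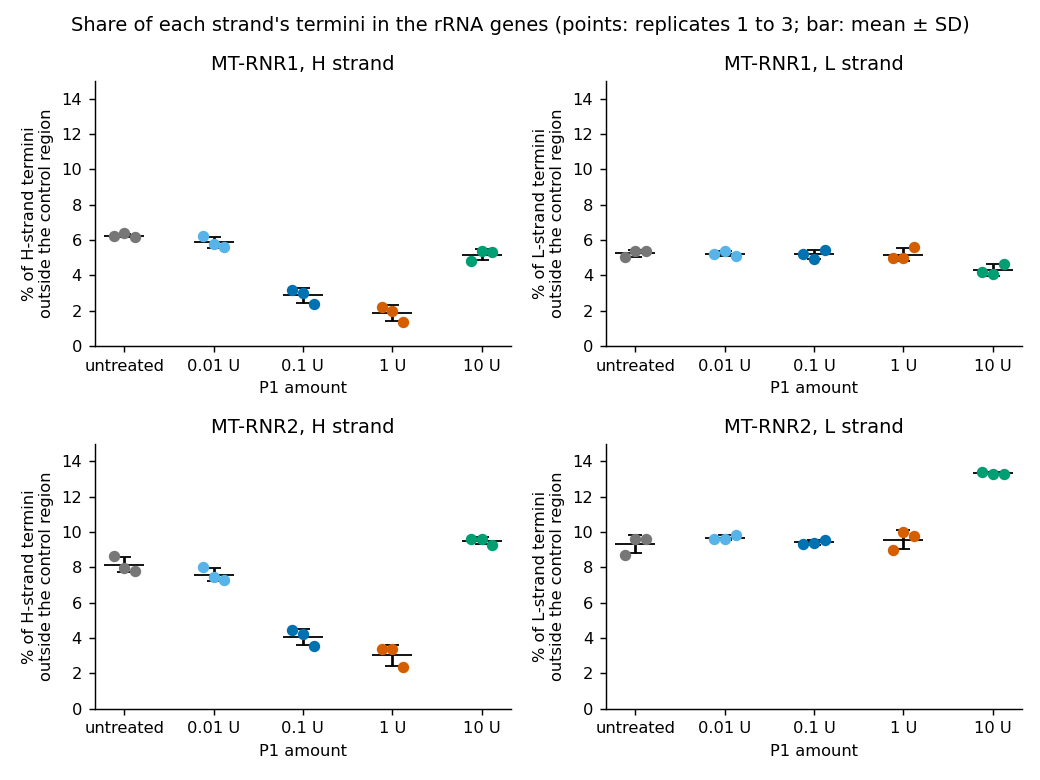
Percent of each strand's termini outside the control region (y axis) that lay in MT-RNR1 or MT-RNR2 at each P1 amount (x axis), with 1 point per replicate and bars for mean ± SD of 3 replicates. The H-strand panels dip at 0.1 and 1 U, to 1.87 ± 0.438% in MT-RNR1 and 3.03 ± 0.603% in MT-RNR2 at 1 U, while on the L strand only 10 U stands apart, lower in MT-RNR1 and higher in MT-RNR2.

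The fit over all genes also set the rRNA genes apart from their neighbors. At 1 U the log2 fold change against untreated was −1.03 ± 0.11 (SE) for MT-RNR1 and −0.71 ± 0.09 for MT-RNR2 on the H strand, with adjusted p of 8.04e-07 and 5.05e-06 in edgeR's quasi-likelihood test. These were the only H-strand genes called lower, 5.41% of the 37 genes, and of the other 35 genes 34 were called higher, with a median of 1.06. The exception, MT-TS1, a serine tRNA gene, was at −0.27 (adjusted p = 0.15). The tRNA gene MT-TV, which sits between the lowered genes, rose by 1.13 ± 0.29, and MT-TL1, directly past MT-RNR2, rose by 1.39 ± 0.13. MT-ND1 and MT-ND2 rose by 1.21 ± 0.09 and 1.06 ± 0.07, and MT-TF, which precedes MT-RNR1, by 0.40 ± 0.18 (adjusted p = 0.0462).

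At 0.1 U the same genes were the lowest, at −0.63 ± 0.11 for MT-RNR1 and −0.50 ± 0.09 for MT-RNR2 (adjusted p = 0.000138 and 0.000201), again the only H-strand genes called lower (5.41%), while 33 of the other 35 were called higher. At 0.01 U none of the 74 genes and strands was called (0%) by edgeR or DESeq2, and 3 had an unadjusted p under 0.05, none of them in the rRNA genes. The size of these changes and 1 of the calls depended on the scaling, which moves all genes of a sample alike. The median of the 37 H-strand genes at 1 U was 1.02 when scaled by termini outside the control region, 1.36 with TMM and 1.76 with the size factors of DESeq2. Relative to the median of 1.02, MT-RNR1 was at −2.06 on the log2 scale and MT-RNR2 at −1.73, distances that a scaling cannot change by its construction. DESeq2 itself placed MT-RNR1 at −0.32 and MT-RNR2 at 0.01 at 1 U, the latter without a call. With all mitochondrial termini as the total, control region included, the factor of 1 U over untreated was 0.915 for MT-RNR1 and 1.15 for MT-RNR2. The rRNA genes were the lowest and next to lowest of the 37 at both amounts, also without the replicate block and without each replicate.

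The density of H-strand termini per kb puts the genes on 1 scale. In untreated samples MT-RNR1 had 31452 termini per kb per 1000000 outside the control region and MT-RNR2 had 25079, which ranked them 9th and 4th from the lowest of the 15 genes of at least 200 bases. Untreated rRNA genes therefore lay among the other long genes. At 1 U they fell to 15437 and 15379, the lowest ranks of the 15, with MT-ND3 next at 28517 and MT-CYB, the gene beside the control region at the other end, highest at 88479. MT-ND1 went from 29827 to 68704. At 10 U the order was mixed again, with MT-RNR1 at 32036 and MT-RNR2 at 36080, ranks 3 and 9.

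**Figure D2:**
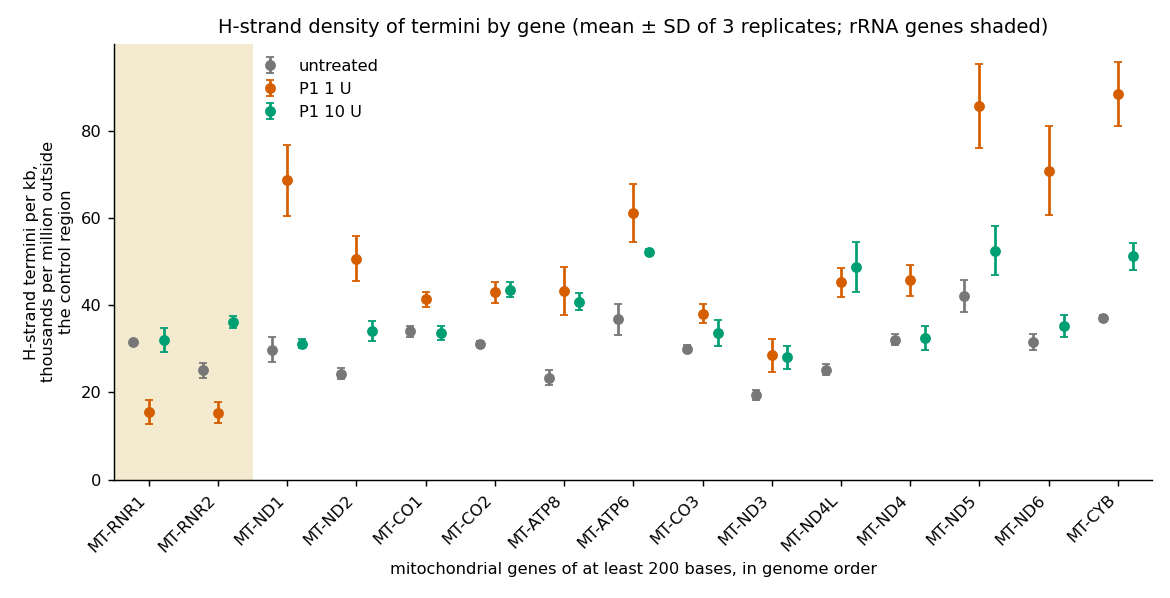
H-strand termini per kb, scaled to the termini outside the control region (y axis), for the 15 mitochondrial genes of at least 200 bases in genome order (x axis), as mean ± SD of 3 replicates with the rRNA genes shaded. At 1 U MT-RNR1 and MT-RNR2 are the lowest genes at 15437 and 15379 per kb, against 28517 for the next, MT-ND3.

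MT-ND1 and MT-ND2 lie directly past the rRNA genes and were used as a local comparison, chosen after the data were seen. The density of H-strand termini in the rRNA genes over that in MT-ND1 and MT-ND2 was 1.03, 1.03 and 1.01 in untreated samples, which put both regions at nearly the same level before digestion. It was 0.456, 0.442 and 0.352 at 0.1 U, 0.313, 0.284 and 0.194 at 1 U, and 1.05 ± 0.0378 at 10 U. The 0.1 and 1 U samples all lay below the untreated ones, and the factor at 1 U was 0.253. The spread over all amounts, untreated included, had p = 0.000625 (exact two-sided permutation test within replicate numbers). With each position counted once the factor at 1 U was 0.677 (exact permutation p over all amounts = 0.0025). The same ratio on the L strand was 0.933 ± 0.0486 in untreated samples, 0.987 at 1 U and 1.12 at 10 U, a spread of much smaller size (exact p = 0.005).

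In bins of 100 bases the lower H-strand share at 1 U ran through both genes rather than sitting at a few places. Of the 25 H-strand bins with at least 50 bases in the rRNA genes, 21 were called lower and 0 higher, 9 of 10 in MT-RNR1 and 12 of 15 in MT-RNR2. Over all 154 H-strand bins outside the control region 14.3% were called lower, and of the 129 bins elsewhere only 1 was, while 108 were called higher. The 3 lowest bins were 801-900, 701-800 and 901-1000, all in the 5′ part of MT-RNR1, at −1.35, −1.28 and −1.27. The 4 bins that were not called lower were 601-700, at the start of MT-RNR1, and 1801-1900, 2601-2700 and 2701-2800 in MT-RNR2, at 0.02, −0.24, −0.07 and −0.06. The median of the rRNA bins minus that of all H-strand bins was −1.57, a difference in which the scaling cancels.

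At 0.1 U, 24 of the 25 H-strand rRNA bins were called lower, and these were all the H-strand bins called lower (15.6%). The lowest were 1001-1100, 1101-1200 and 1501-1600, again in MT-RNR1, at −0.80, −0.76 and −0.67. The number and direction of calls changed with the scaling. With TMM 12 H-strand rRNA bins were lower and 0 higher at 0.1 U, and 12 lower and 3 higher at 1 U. With DESeq2 these were 10 and 0 at 0.1 U, and 5 lower and 7 higher at 1 U. The median over all bins of both strands at 1 U was −1.08 in the fit, −0.55 with TMM and −0.19 with DESeq2. At 0.01 U none of the 50 rRNA bins was called by edgeR or DESeq2 and 0 had an unadjusted p under 0.05 in edgeR, against 3 of all 308 bins (0% called).

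**Figure D3:**
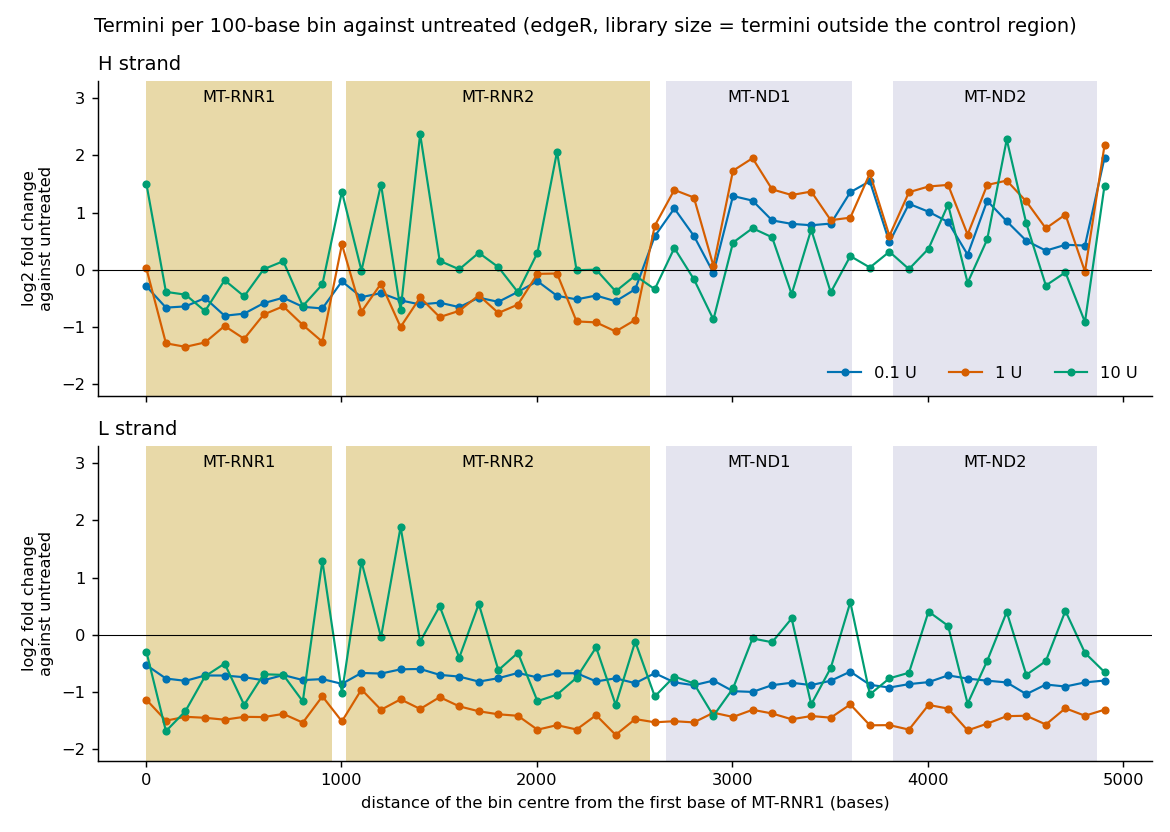
Log2 fold change of termini per 100-base bin against untreated (y axis) by distance of the bin centre from the first base of MT-RNR1 (x axis), for 0.1, 1 and 10 U on the H strand (top) and the L strand (bottom), with the genes marked. On the H strand the 1 U line is below 0 in 24 of the 25 bins with at least 50 bases in the rRNA genes, the exception being the first. The bin 1601-1700 between the genes, not among the 25, went from 0.196% of termini outside the control region untreated to 0.262% at 1 U. The 1 U line rises past the end of MT-RNR2, and on the L strand it lies below 0 throughout.

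At 0.1 and 1 U the H-strand profile against untreated stepped up at the 3′ end of MT-RNR2. A fall before this step was not told apart from a rise after it. Termini in the last 50 bases of MT-RNR2 over those in the 50 bases after it stood at 0.688, 0.840 and 0.846 in untreated samples, 0.346, 0.257 and 0.272 at 0.1 U, and 0.175, 0.142 and 0.0860 at 1 U. The samples of these 2 amounts lay below all untreated samples. At 1 U the 50 bases inside held 197, 165 and 92 termini. The factor at 1 U was 0.163. For the spread over all amounts, untreated included, p was 0.000208 (exact two-sided permutation test within replicate numbers). At 10 U the ratio was reversed, at 2.05, 2.16 and 1.44. A search for the single position that best divides the H-strand profile between the start of MT-RNR1 and the end of MT-ND1, chosen after the data were seen, gave positions 3226, 3235 and 3233 in the 0.1 U replicates and 3233, 3235 and 3235 at 1 U. These lie −3 to 6 bases from the annotated last base of MT-RNR2, the edge shown in capitals above, without correction for the shift between files and annotation. The ratio to untreated was 3.20, 3.68 and 5.64 times higher after the division than before it at 1 U. The positions were the same when the search ran from the start of MT-RNR2 to the end of MT-ND2. At 0.01 U the 3 replicates gave divisions far from each other, at 983, 3252 and 3704.

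**Figure D4:**
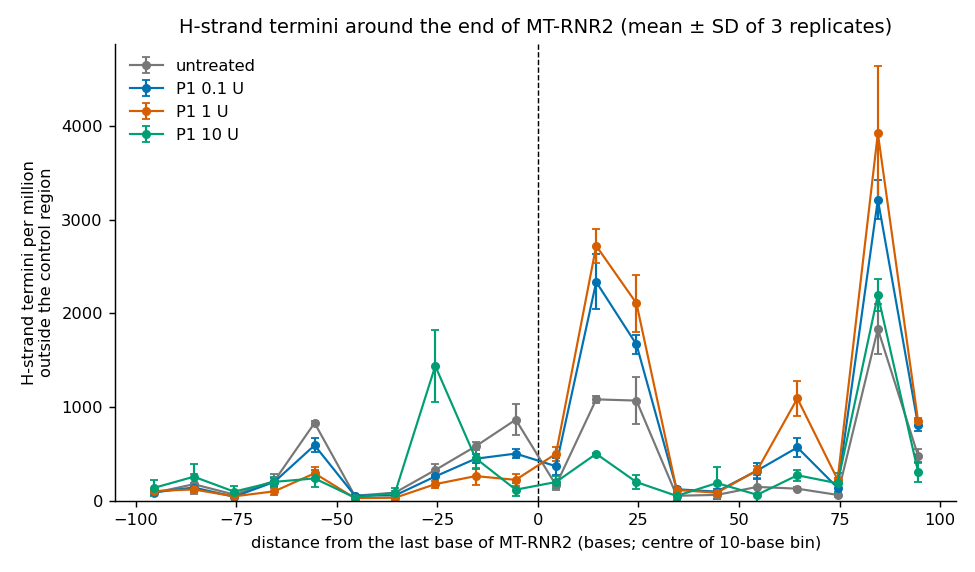
H-strand termini in 10-base bins, scaled to the termini outside the control region (y axis) by distance from the last base of MT-RNR2 (x axis), as mean ± SD of 3 replicates per P1 amount. At 0.1 and 1 U the level rises just past the last base, where the ratio of the 50 bases inside to the 50 outside was 0.292 ± 0.0477 and 0.134 ± 0.0449, against 0.792 ± 0.0893 untreated.

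The other edges changed less evenly. At the end of MT-RNR1, where MT-TV begins, the H-strand ratio of inside to outside was 2.74 ± 1.19 in untreated samples. It fell to 0.508 ± 0.0986 at 1 U (factor 0.197, exact permutation p over the 5 amounts = 0.00278). At the start of MT-RNR2, on the other side of MT-TV, the ratio fell from 1.94 ± 0.188 to 0.883 ± 0.0562 at 1 U (factor 0.455). The spread over the 5 amounts had an exact permutation p of 0.0240. With 100 bases on each side this spread did not pass (factor at 1 U 0.558, exact permutation p = 0.0543). MT-TV itself held 0.0852 ± 0.0167% of termini outside the control region on the H strand in untreated samples and 0.180 ± 0.0188% at 1 U, as MT-TL1 was also higher at 1 U, at 0.711 ± 0.0710% against 0.275 ± 0.0191%. The start of MT-RNR1 was at 0.625 ± 0.0637 untreated and 0.570 ± 0.106 at 1 U, a factor of 0.905 that became 0.308 with 100 bases on each side. It differed at 10 U, where the ratio was 5.30, 4.76 and 2.91 (exact permutation p over the 5 amounts = 0.00167). The L-strand edge at the start of MT-RNR1 went from 0.369 untreated to 0.726 at 1 U. Its factor was 1.81 at 1 U and larger at 10 U, at 2.61 (exact permutation p over the 5 amounts = 0.00556). The other 3 L-strand edges gave exact permutation p of 0.646, 0.369 and 0.931. When each position with a terminus was counted once, with 50 positions on each side as the ceiling, none of the 3 H-strand edges that fell passed. The factor at 1 U was then 0.653 at the end of MT-RNR2, 0.713 at the end of MT-RNR1 and 0.989 at the start of MT-RNR2. The exact permutation p over the 5 amounts was 0.162, 0.431 and 0.313.

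On the L strand the rRNA genes moved with the rest of the strand at 0.1 and 1 U. The share of L-strand termini in MT-RNR1 was 5.25 ± 0.205% in untreated samples, 5.24 ± 0.125% with 0.01 U, 5.19 ± 0.257% with 0.1 U and 5.18 ± 0.350% with 1 U. In MT-RNR2 it was 9.31 ± 0.501, 9.69 ± 0.139, 9.42 ± 0.126 and 9.58 ± 0.533%. Each of these treated groups overlapped the untreated one. Only 10 U stood apart, at 4.31 ± 0.320% for MT-RNR1 and 13.4, 13.3 and 13.3% for MT-RNR2, factors of 0.819 and 1.43. Over the 5 amounts the exact permutation p was 0.0159 for MT-RNR2 (adjusted 0.0280) and 0.0387 for MT-RNR1, which did not pass after adjustment (0.0561).

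As a share of the termini of both strands, all 4 gene strands were lowest at 1 U. The share of termini outside the control region on the L strand of MT-RNR1 was 2.73 ± 0.164% untreated, 1.65 ± 0.125% at 0.1 U, 1.04 ± 0.236% at 1 U and 1.75 ± 0.037% at 10 U. For MT-RNR2 it was 4.84 ± 0.353, 3.01 ± 0.217, 1.93 ± 0.443 and 5.44 ± 0.451%. The same H-strand share was 3.00 ± 0.0544% untreated, 1.94 ± 0.207% at 0.1 U, 1.47 ± 0.258% at 1 U and 3.06 ± 0.262% at 10 U for MT-RNR1, and 3.91 ± 0.274, 2.77 ± 0.213, 2.40 ± 0.372 and 5.62 ± 0.218% for MT-RNR2. All 4 passed the exact permutation test over the 5 amounts, with adjusted p of 0.000907 to 0.00242, as did 97.3% of all genes and strands. With each position counted once the 4 factors at 1 U ranged from 0.781 on the L strand to 0.937 on the H strand, both in MT-RNR2. With all mitochondrial termini as the total, the L-strand factors were 0.708 and 0.739. In the gene fit both L-strand genes were called lower at 0.1 and 1 U, like all L-strand genes (100%), at −1.41 for MT-RNR1 and −1.34 for MT-RNR2 at 1 U. All 25 L-strand rRNA bins were called lower at both amounts, where 99.4% and 100% of all L-strand bins were. The lowest at 1 U were 3001-3100, 2601-2700 and 2801-2900 in MT-RNR2, at −1.75, −1.66 and −1.65.

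The ratio of H-strand to L-strand termini was higher at 1 U than without P1 in both rRNA genes and in the remaining genome, where it was highest. In MT-RNR1 it was 1.10 ± 0.0849 in untreated samples, 1.27, 1.60 and 1.41 at 1 U, and 1.75 ± 0.151 at 10 U. In MT-RNR2 it was 0.813 ± 0.118 untreated, 1.06, 1.36 and 1.36 at 1 U, and 1.04 ± 0.128 at 10 U. Outside the control region and the rRNA genes it went from 0.925 ± 0.0574 to 3.10, 4.47 and 6.46 at 1 U, and was 1.52 ± 0.225 at 10 U. Every 1 U sample of the rRNA genes was above the untreated mean of its gene and below each 1 U value of the remaining genome. The factor at 1 U was 1.29 for MT-RNR1 and 1.55 for MT-RNR2. The spread over all amounts, untreated included, had adjusted exact permutation p of 0.0024 and 0.00213. All 37 genes passed this test (100%). The difference between the factors of the rRNA genes and those of the remaining genome was not tested as a ratio of strands.

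At 10 U the gene strands took different directions. Against untreated, MT-RNR1 was at 0.02 ± 0.11 on the H strand (adjusted p = 0.829) and −0.65 ± 0.12 on the L strand (adjusted p = 0.000468), and MT-RNR2 was at 0.53 ± 0.09 (adjusted p = 0.000436) and 0.16 ± 0.11 (adjusted p = 0.233), in edgeR. MT-RNR2 was 1 of the H-strand genes called higher (54.1%, with 8.11% lower), and MT-RNR1 was 1 of the L-strand genes called lower (45.9%, with 5.41% higher). Against 1 U, MT-RNR1 and MT-RNR2 were the only H-strand genes called higher (5.41%), at 1.06 ± 0.11 and 1.24 ± 0.09, and 24 of the other 35 were called lower, MT-TL1 among them at −2.19 ± 0.15. Their L-strand values were 0.76 and 1.50, and 83.8% of the L-strand genes were called higher. The comparisons of 10 U with untreated and with 1 U share the 10 U samples.

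Within the genes, 10 U changed bins in both directions. Of the H-strand rRNA bins 5 were called lower and 4 higher (of all H-strand bins 19.5% and 35.7%), and of the L-strand bins 13 lower and 5 higher (53.2% and 11%). With TMM the H-strand split was 2 lower and 8 higher, and with DESeq2 it was 3 and 8. The largest H-strand rises against untreated were in 2001-2100 and 2701-2800 of MT-RNR2, at 2.37 and 2.06, and in 601-700, which holds the start of MT-RNR1, at 1.50. The H-strand bins with the largest falls were 901-1000, 1901-2000 and 1401-1500, at −0.72, −0.70 and −0.63. On the L strand 1901-2000, 1501-1600 and 1701-1800 rose by 1.89, 1.30 and 1.28, and 701-800, 801-900 and 1101-1200 were at −1.68, −1.33 and −1.22. The single division that best fitted the H-strand profile at 10 U came at positions 699, 706 and 698, with a ratio to untreated of 5.46 to 6.10 before it and 1.05 to 1.21 after it. That search ran from the start of MT-RNR1 to the end of MT-ND1. From the start of MT-RNR2 to the end of MT-ND2 it gave 1680, 2078 and 1681, so the division at 10 U depended on the window.

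Single positions were also high at 10 U. Without the 10 highest positions of each gene and strand, the H-strand rRNA bins called were 3 lower and 4 higher, and the L-strand ones 11 lower and 3 higher. Positions with at least 0.1% of the termini outside the control region in all 3 replicates numbered 3 on the H strand and 2 on the L strand in untreated samples, none of them in the rRNA genes, and none lay there at 0.1 or 1 U. At 0.01 U 1 did, the L-strand position 2730 of MT-RNR2. At 10 U there were 19 on the H strand, 5 of them in the rRNA genes (26.3%), and 11 on the L strand, also with 5 in the rRNA genes (45.5%), genes that hold 16.3% of the bases. Position 2753 of the H strand of MT-RNR2 held 0.550, 0.404 and 0.467% of the termini outside the control region at 10 U, against a mean of 0.0511% at 1 U and 0.00377% in untreated samples. The adjacent positions 2058 and 2059 held 0.304 and 0.405% (0.0123 and 0.0143% untreated), and 1881 held 0.179%. Position 659, near the start of MT-RNR1 and within the first stretch printed above, held 0.291, 0.400 and 0.375%, against 0.0362% untreated. It was the highest H-strand position of MT-RNR1 in each replicate at 1 U and at 10 U.

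Among L-strand positions 1961 of MT-RNR2 was the highest, at 0.681, 0.641 and 0.575% at 10 U against 0.0334% untreated. Positions 1972, 1773 and 1736 held 0.218, 0.228 and 0.171%, and position 1541 of MT-RNR1 held 0.163%, against 0.00621% untreated. As a share of the termini of the gene and strand, these positions held 11.6 ± 1.50% in MT-RNR1 on the H strand (1.21 ± 0.0969% untreated, 2.68% at 1 U) and 9.32 ± 3.04% on the L strand (0.231% untreated). In MT-RNR2 the 4 positions of each strand held 24.2 ± 2.58% on the H strand (1.25 ± 0.957% untreated, 5.69 ± 1.01% at 1 U) and 22.9 ± 1.59% on the L strand (2.61 ± 1.39% untreated). The positions were chosen for their level at 10 U, so the rise is a description. No molecular identifier is named for these reads, so a high count at 1 position was not separated from repeated copies of 1 molecule.

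**Figure D5:**
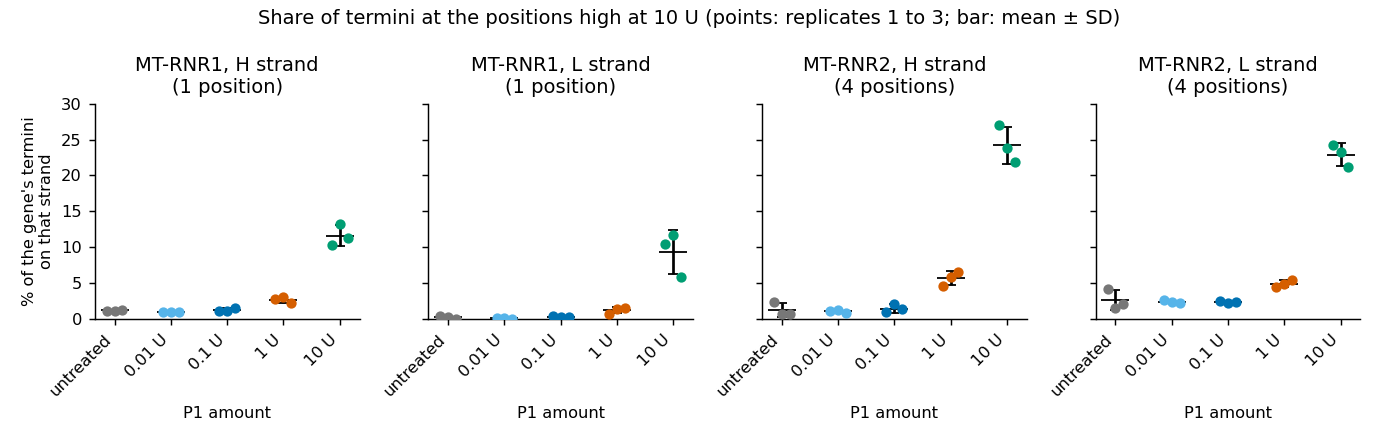
Percent of the termini of each gene and strand (y axis) that lay at the positions with at least 0.1% of the termini outside the control region in all 10 U replicates, by P1 amount (x axis), with 1 point per replicate and bars for mean ± SD of 3 replicates. In MT-RNR2 the 4 positions of each strand reach 24.2 ± 2.58% on the H strand and 22.9 ± 1.59% on the L strand at 10 U, and all 4 panels are highest there.

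A count that names no position in advance was also highest at 10 U. At 1 U, as deposited, its factor over untreated was 0.845 in MT-RNR1 and 0.902 in MT-RNR2 on the H strand. On the L strand the factors at 1 U were 0.934 and 1.05. The 10 highest positions of each sample held 11.7 ± 1.62% of the H-strand termini of MT-RNR2 in untreated samples, 10.5% at 1 U and 32.1 ± 3.13% at 10 U (exact permutation p over the 5 amounts = 0.00458). For the L strand of MT-RNR2 this was 13.6 ± 2.34% untreated, 14.2% at 1 U and 32.0 ± 1.95% at 10 U (exact permutation p = 0.0358). In MT-RNR1 it went from 18.0 ± 2.30 to 24.2 ± 1.05% on the H strand and from 16.1 ± 1.91 to 26.7 ± 3.26% on the L strand (exact permutation p = 0.00299 and 0.00347). Fewer positions were hit at 10 U, with a terminus at 35.4% of H-strand positions of MT-RNR1 and 33.8% of MT-RNR2, against 58.1 and 53.5% untreated. The 10 U samples were among the shallowest. With every sample thinned to 20536 termini outside the control region, the share of the 10 highest positions at 10 U over untreated was 1.28 in MT-RNR1 and 2.49 in MT-RNR2 on the H strand, and 1.53 and 2.26 on the L strand.

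The highest untreated positions were other ones. On the H strand these were 960, 712 and 806 in MT-RNR1 and 1770, 2977 and 1905 in MT-RNR2. The L-strand ones were 1228, 872 and 1088 in MT-RNR1 and 2730, 2265 and 2286 in MT-RNR2. Position 2730 held 0.129% of the termini outside the control region on average in untreated samples, 0.125% at 0.01 U and 0.0378% at 1 U. At 1 U, when the rRNA genes held their smallest share, positions 2753, 2059 and 2058 already led the H strand of MT-RNR2, as they did at 10 U. On the L strand of MT-RNR2 the leading 1 U positions were 1736, 2730 and 2265, of which only 1736 is among the high positions at 10 U.

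MT-RNR1 and MT-RNR2 also differed from each other. On the H strand the density in MT-RNR2 over that in MT-RNR1 was 0.797 ± 0.0443 untreated, 1.00 ± 0.0675 at 1 U and 1.13 ± 0.0848 at 10 U (exact permutation p = 0.000347). The L-strand ratio was 1.08 ± 0.0165 untreated, 1.13 at 1 U and 1.90 ± 0.138 at 10 U (exact permutation p = 0.0239). With each position counted once, the factor at 1 U was 1.07 on the H strand. The H-strand spread over all amounts then no longer passed (exact permutation p = 0.131). On the L strand the factor at 1 U was 0.976, the other way. Inside MT-RNR2 the L-strand density of the 3′ part over the 5′ part, divided at the middle, fell from 0.957 ± 0.0315 untreated to 0.757 ± 0.0481 at 1 U and 0.392 ± 0.0264 at 10 U (exact permutation p = 0.000347). The H-strand ratio was 0.993 at 1 U and 0.809 ± 0.0651 at 10 U (exact permutation p = 0.00986).

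The genes whose share followed the rRNA genes most closely over the 15 samples differed by strand. The comparison was made among the 15 genes of at least 200 bases, so the tRNA genes were not part of it. On the H strand MT-RNR1 and MT-RNR2 were most like each other, with a Pearson r of 0.891 between their log2 shares of the termini outside the control region. The next for MT-RNR1 were MT-ND4L and MT-CO2, at −0.444 and −0.547, and MT-ND1, the nearest long gene past MT-RNR2, was the least like it of these at −0.975. For MT-RNR2 the next were MT-ND4L and MT-ATP8, at −0.0232 and −0.155. On the L strand MT-RNR1 was most like MT-ATP6, MT-ND5 and MT-ND4, at 0.994, 0.993 and 0.974, and MT-RNR2 was most like MT-ND4L, MT-ND2 and MT-ND3, at 0.982, 0.979 and 0.966. The samples fall into P1 amounts and the shares have a common total, so these values describe likeness only.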

How the data were processed

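Termini of 15 K562 samples (5 P1 amounts, 3 replicates) were analysed. According to the study's methods and the labels, the authors kept reads with the expected tails, aligned them to the mitochondrial genome with BWA 0.7.12 and deposited a count of termini per position and strand. The authors also deposited RPM, the same counts divided by the sample total, which was not used. Repeated copies of a molecule were not removed here, so precision rests on the spread between replicates.

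Shares and ratios were computed per sample in Python 3.11.15 with NumPy 2.4.6 and tested on log2 values, with 0.5 added where counts were divided, by exact two-sided permutation within replicate numbers (14400 arrangements, smallest p 6.94e-05). A factor is the geometric mean over replicates of treated over same-numbered untreated values. Genes and 100-base bins were fitted with edgeR 4.0.16 in R 4.3.3 (quasi-likelihood, replicate as block, library size the termini outside the control region, low counts filtered) and adjusted over all features by Benjamini-Hochberg at 0.05. DESeq2 1.42.0 was an alternative. Scripts were tested on simulated data. Adjoining genes, the 3 called bins with the largest change per direction and strand, the 3 highest positions per group and the 3 most alike genes are named. The members and lists were chosen with earlier results of these data known. In replicates 1, 2 and 3, 4, 2 and 8 of 10 pairs of same-numbered samples had correlated deviations over 0.1, so the block follows the study's design and not these data. Gene positions came from the GRCh37 annotation of a 16569-base mitochondrial genome. The base composition at termini placed the files about 2 bases later within the rRNA genes, and gave a shift 1 base smaller in MT-ND1.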

Additional observations from a re-analysis of the deposited data

How the results depend on the processing

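Values are 1 U over untreated unless stated, and the causes of changes were not tested except where given. Outside the gene and bin fits, passing refers to the exact permutation test over all amounts. Thinning of single positions, unique sites at edges, the comparison with MT-ND1 and MT-ND2, and the other normalizations of the gene fit were chosen after seeing the data. Without the replicate block, the L-strand share of MT-RNR1 kept its value of 0.985 and passed the test. Outside the bins, no other call of the rRNA genes changed. Of the 50 rRNA bins, 46 were called at 0.1 U (49 with the block) and 25 at 10 U (27). Among the other 35 H-strand genes, 33 were then higher at 1 U (34 with the block), 20 higher at 10 U (19), and 23 lower at 10 U against 1 U (24). With all mitochondrial termini as the total, the MT-RNR2 H-strand share reversed to 1.15.

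With each position counted once, which caps a window at its number of positions, the L-strand share of MT-RNR1 reversed to 1.04 and that of MT-RNR2 no longer passed at 1.01. Density of MT-RNR2 over MT-RNR1 gave 1.07 on the H strand (not passing) and 0.976 on the L strand (reversed), and the 3′ over 5′ part of MT-RNR2 on the H strand 0.925 (not passing). Edges on the H strand gave 1.02 at the start of MT-RNR1 (reversed), 0.713 at its end, 0.989 at the start of MT-RNR2 and 0.653 at its end (not passing), and on the L strand 1.22 at the start of MT-RNR1 (not passing) and 1.05 at its end (reversed). The L-strand ratio of the rRNA genes to MT-ND1 and MT-ND2 no longer passed when thinned to unique sites (1.05) or without the 10 highest positions (1.04).

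For the share of the 10 highest positions, thinning reversed MT-RNR2 on the H strand to 1.02 and MT-RNR1 on the L strand to 1.16, and the highest position alone reversed MT-RNR1 H to 1.04, MT-RNR2 H to 1.21 and MT-RNR2 L to 0.804. With 25 bases the H-strand start of MT-RNR1 reversed to 1.04. With 100 bases the H-strand start of MT-RNR2 (0.558) and the L-strand start of MT-RNR1 (1.19) no longer passed, the L-strand end of MT-RNR1 reversed to 1.27, and the L-strand start and end of MT-RNR2 passed at 1.51 and 1.09. Bins of 50 bases gave 90, 93 and 52 calls and bins of 200 bases 26, 24 and 15, at 0.1, 1 and 10 U, as the number of bins differs.

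In the gene fit, TMM reversed MT-RNR2 L at 0.01 U (−0.00244) and MT-RNR1 H at 10 U (−0.00762). DESeq2 reversed MT-RNR1 H and MT-RNR2 H at 0.01 U (0.0177 and 0.00737) and MT-RNR2 H at 1 U (0.0144), and called MT-RNR2 L at 10 U (0.233).

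Leaving out a replicate leaves 120 arrangements, so the adjusted test loses calls by construction. The ranges were 0.459 to 0.542 for the MT-RNR1 H-strand share, 0.264 to 0.334 and 0.342 to 0.407 for the shares of MT-RNR1 and MT-RNR2 within the H strand, and 0.958 to 1.02 (reversed without replicate 2) and 1.02 to 1.03 within the L strand. They were 1.40 to 1.82 for the H/L ratio of MT-RNR2, 0.912 to 1.01 for the 3′ over 5′ part of MT-RNR2 on the H strand (reversed without replicate 2), 0.230 to 0.290 (H) and 1.03 to 1.08 (L) for the rRNA genes over MT-ND1 and MT-ND2, and 1.01 to 1.08 for MT-RNR2 over MT-RNR1 on the L strand. For the 10 highest positions they were 0.753 to 0.918 and 0.864 to 0.928 on the H strand and 0.894 to 0.960 and 0.989 to 1.12 (reversed without replicate 1) on the L strand of MT-RNR1 and MT-RNR2. For edges they were 0.869 to 0.950 (H) and 1.37 to 2.13 (L) at the start of MT-RNR1, 0.141 to 0.274 at its end (H) and 0.428 to 0.488 at the start of MT-RNR2 (H). Bins called at 10 U ranged from 17 (without replicate 2) to 27. MT-RNR2 L at 0.01 U ranged from −0.0538 (without replicate 1) to 0.0545, and MT-RNR1 H at 10 U from −0.0337 (without replicate 3) to 0.0846. The end of MT-RNR2 on the H strand passed without each replicate, at 0.131 to 0.207. Of the 386 alternative values, 312 were classed as unchanged. For tests and fits this meant the same direction and side of the threshold, and for division positions a shift within the SD of the replicates. For counts of rRNA bins it meant only a similar total of calls, whatever their direction. The DESeq2 total at 1 U, 32 against 46, was thus classed as unchanged. Its H-strand calls were 5 lower and 7 higher, against 21 lower and 0 higher in the main fit. The 10 U samples are among the shallowest, which limits single positions there.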
